A study of Homo sapiens with 21 samples.

Results

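The genes described here encode the 4 ERBB receptors (EGFR, ERBB2, ERBB3 and ERBB4) and the 2 membrane proteases ADAM10 and ADAM17, which release the ligands of these receptors. They are 6 of the 19426 genes that the platform annotation names on this array, and 6 of the 16614 that were tested. Each was measured by the probesets that the annotation pairs with its symbol and no other, 231 in all, where a probeset is a small group of probes for 1 short stretch of transcript. ERBB2 had 53 of them, ERBB3 45, EGFR 39, ERBB4 39, ADAM10 32 and ADAM17 23.

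ERBB receptors are tyrosine kinases of the cell surface that pair with each other when a ligand binds, and the paired kinases signal to the RAS and ERK and the PI3K and AKT pathways. Most of their ligands are made as membrane-bound precursors, and proteases called sheddases cut them free, so that a cell can stimulate itself and its neighbours. In mammary epithelium the family drives growth and migration, and EGF is a standard component of the medium of the cells used here.

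The cells were MCF10A, a human mammary epithelial line that is immortal but does not form tumours. They were taken at low passage, kept 24 h without EGF and starved for 24 h in 1% horse serum. EGF was then given at 20 ng/ml. Cells that had received no EGF (0 min) and cells harvested 20, 40, 60, 120, 240 and 480 min after EGF gave 3 arrays each, labelled A, B and C and described as biological triplicates, 21 arrays in all. There were no untreated arrays at the later times, so EGF cannot be told apart from handling or time in culture. The number of arrays limits the precision. All groups were the same line, and the labels name no engineered genetic change. A gene's level could fall because fewer cells held the transcript or because each cell held less, which bulk RNA cannot tell apart.

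Levels are log2(intensity + 16), and a gene's level is the median over those of its probesets whose mean over all arrays reached 5.18, the median of all probesets. Since probes differ in brightness, levels of different genes are not set against each other. Arrays of the same time had correlations of 0.944 to 0.988 across genes. Among the basal markers 7 of 8 were above the filter, with 97.5% of their probesets kept. Of the markers of other cells, 7 of 8 luminal, 5 of 6 fibroblast, 3 of 5 leukocyte and 4 of 4 endothelial genes were above it. Of their probesets 73.2%, 65.5%, 23.6% and 39.7% were kept. Since most markers of each kind passed, being above the filter does not identify the cells. No probeset of the fibroblast marker LUM was kept. An array index sets the median log2 signal of probesets with 1 gene against that of probesets with no name here. It averaged between 1.27 and 1.32 at the EGF times and 1.24 at 0 min. Arrays of the same time also differed in it, most at 120 min, where A, B and C had 1.22, 1.33 and 1.42.

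Because ADAM17 and ADAM10 differed in their response, and EGFR and ERBB2 in theirs, the 250 bases before the gene start of each are shown, from the RefSeq promoter table on GRCh38.p14, 5′ to 3′ on the gene's strand. Capitals mark matches on either strand to 6 motifs: AP-1 (TGANTCA), CRE (TGACGTCA), EGR (GCGNGGGCG), ETS (CCGGAAG), SP (GGGCGG) and the SRF CArG box. The ADAM17 window is chr2:9555831-9556080 on the minus strand, and that of ADAM10 is chr15:58749708-58749957 on the minus strand. The EGFR window is chr7:55018767-55019016 on the plus strand, and that of ERBB2 is chr17:39687844-39688093 on the plus strand.
ADAM17: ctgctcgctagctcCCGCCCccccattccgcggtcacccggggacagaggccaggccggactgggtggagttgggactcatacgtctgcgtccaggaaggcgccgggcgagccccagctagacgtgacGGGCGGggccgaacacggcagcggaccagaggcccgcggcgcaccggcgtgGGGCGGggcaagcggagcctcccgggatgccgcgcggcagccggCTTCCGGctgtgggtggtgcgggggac
ADAM10: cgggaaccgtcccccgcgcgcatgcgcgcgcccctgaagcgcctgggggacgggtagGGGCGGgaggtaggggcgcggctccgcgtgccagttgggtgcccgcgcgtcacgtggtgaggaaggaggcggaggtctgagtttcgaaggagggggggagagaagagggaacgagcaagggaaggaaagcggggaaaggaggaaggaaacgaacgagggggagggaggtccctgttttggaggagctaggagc
EGFR: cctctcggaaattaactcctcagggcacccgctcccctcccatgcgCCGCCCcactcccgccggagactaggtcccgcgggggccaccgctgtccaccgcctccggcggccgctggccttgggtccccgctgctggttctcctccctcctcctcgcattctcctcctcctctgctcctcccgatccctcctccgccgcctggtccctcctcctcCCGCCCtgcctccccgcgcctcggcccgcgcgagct
ERBB2: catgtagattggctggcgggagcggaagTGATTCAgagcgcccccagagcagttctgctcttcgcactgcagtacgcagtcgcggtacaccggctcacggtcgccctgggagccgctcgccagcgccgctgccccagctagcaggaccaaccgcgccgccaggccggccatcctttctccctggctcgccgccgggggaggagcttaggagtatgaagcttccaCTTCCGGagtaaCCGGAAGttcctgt
The ADAM17 window, 75.6% G and C, held 3 SP matches that begin 236, 122 and 71 bases before the start and 1 ETS match 27 bases before it. The ADAM10 window, 68.4% G and C, held 1 SP match 193 bases before the start. The EGFR window held 2 SP matches, 204 and 36 bases before the start. The ERBB2 window held 1 AP-1 match 222 bases before the start and 2 ETS matches, 26 and 14 bases before it. EGFR has a second window in the table, with 2 AP-1 matches, and the ERBB4 window held 1 SP match. SP matches occur in 42.6% of the 35116 windows of this length, ETS in 8.52%, EGR in 8.41%, AP-1 in 6.57%, CRE in 1.65% and the CArG box in 1.16%. An EGR match can share letters with an SP match, but no window of these 5 genes held EGR, CRE or CArG letters. ERBB3 has no entry in the promoter table, so no window of it was searched. The matches describe the letters only.

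Against 0 min, ADAM17 rose at 60, 120 and 240 min and ERBB3 fell at 120, 240 and 480 min, while EGFR, ERBB2, ERBB4 and ADAM10 passed the test at no time. A gene was called at an adjusted p under 0.05 in limma, Benjamini-Hochberg adjusted over all genes within a time. Of the 6 genes, 1 was called at 60 min, where 5.8% of all genes were. Called were 2 at 120 min, against a background of 14.4%, 2 at 240 min, against 19.7%, and 1 at 480 min, against 22.6%. None was called by limma at 20 or 40 min, where 0.981% and 2.23% of all genes were. At an unadjusted p under 0.05, 1 of the 6 was higher at 20 min and 1 lower at 40 min. The share of all genes at that looser threshold is not given here. Over the whole course 2 of the 6 passed the F-test, as did 27.5% of all genes. With 6 genes, counts this near the background are not read as a result about the family.

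**Figure D1:**
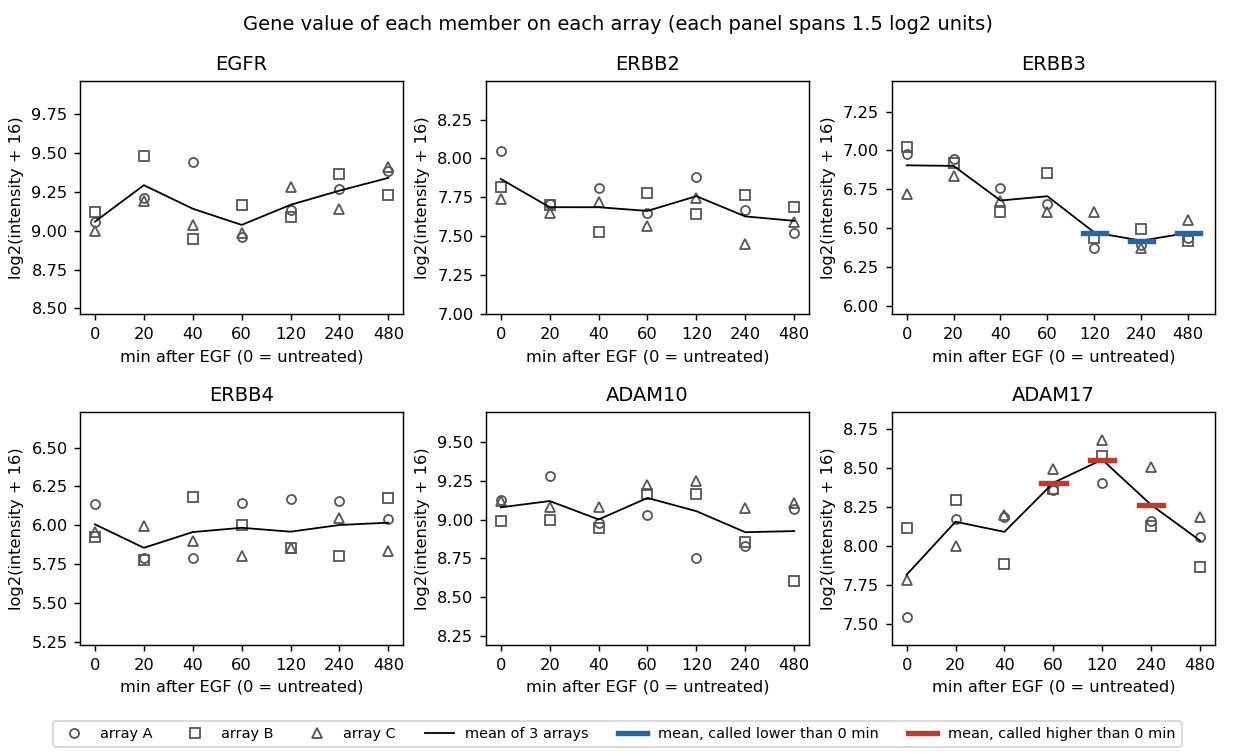
Level of each gene on each array, log2(intensity + 16), against minutes after EGF (0 is untreated). Symbols are arrays A, B and C, the line joins the means, and coloured bars mark means that were called against 0 min: ADAM17 was highest at 120 min, at 8.41 to 8.68, and ERBB3 was at 6.55 or below on every array at 240 and 480 min.

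EGFR, the receptor that binds the added EGF, stayed within 8.94 to 9.48 on all 21 arrays. Arrays A, B and C gave 9.06, 9.12 and 9.0 at 0 min, 9.21, 9.48 and 9.19 at 20 min, and 9.44, 8.94 and 9.04 at 40 min. They gave 8.96, 9.17 and 8.98 at 60 min and 9.14, 9.09 and 9.28 at 120 min. They gave 9.27, 9.37 and 9.14 at 240 min and 9.38, 9.23 and 9.41 at 480 min. All 3 arrays lay above the 3 untreated ones at 20, 240 and 480 min, as they did for 11.1%, 23.1% and 21.6% of all genes, and the groups overlapped at 40, 60 and 120 min. The difference was largest at 480 min, at 0.28 ± 0.12 (SE, n = 3 arrays per time), and did not pass, with an adjusted p of 0.11 in limma and a 95% interval of 0.03 to 0.54. The F-test gave an adjusted p of 0.278. Ordered by mean, the times ran from 480 min down through 20, 240, 120, 40 and 0 min to 60 min, and the arrays of all 6 neighbouring pairs in this order overlapped.

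Among the 36 EGFR probesets that passed the filter, 32 were above their 0 min level at 20 min and again at 480 min, where the median differences were 0.20 and 0.28. Over all probesets tested, 55.3% and 54.8% were above theirs at these times. At 480 min 4 were called higher by limma, adjusted over all 261183 probesets, where 10.5% of all were. These were 3002802 at 0.49 ± 0.14, 3002812 at 0.58 ± 0.18, 3002811 at 0.41 ± 0.13 and 3002757 at 0.38 ± 0.13, with adjusted p between 0.0223 and 0.0482. Probesets of 1 gene share the same RNA, so these counts are not replicates.

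ERBB2, which has no known ligand of its own and serves as the partner of the other receptors, gave 8.05, 7.82 and 7.74 on arrays A, B and C at 0 min. It gave 7.71, 7.70 and 7.65 at 20 min, 7.81, 7.53 and 7.72 at 40 min, and 7.65, 7.78 and 7.56 at 60 min. At 120 min it gave 7.88, 7.64 and 7.75, at 240 min 7.67, 7.76 and 7.45, and at 480 min 7.52, 7.69 and 7.59. The mean was highest at 0 min and lowest at 480 min, and all 3 arrays lay below the 3 untreated ones at 20 and at 480 min, as in 5.84% and 12.7% of all genes. The differences ran between -0.27 ± 0.11 at 480 min and -0.11 ± 0.11 at 120 min, and none passed. At 480 min the adjusted p in limma was 0.0944 and the 95% interval -0.50 to -0.04. Its F-test gave an adjusted p of 0.449. By mean the order was 0, 120, 20, 40, 60, 240 and 480 min from the highest down, with overlap in all 6 neighbouring pairs.

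The call on ERBB2 depended on how its probesets were summarised. With the mean over its probesets in place of the median, ERBB2 was called lower at 60 min (adjusted p = 0.0465), 240 min (0.00961) and 480 min (0.00641), at log2 differences of -0.23, -0.25 and -0.26, and it passed the F-test (adjusted p = 0.0441). With only probesets above the 75th percentile it was called lower at the same times, with adjusted p of 0.0499, 0.0463 and 0.0167. Of its 46 kept probesets, 38 were below their 0 min level at 240 min and at 480 min, with medians of -0.30 and -0.27. Limma called 2 of them lower at 60 min, 5 at 240 min and 11 at 480 min, against backgrounds of 1.09%, 4.86% and 6.1%. The lowest adjusted p was that of 3720457 at 480 min, with -0.57 ± 0.14 (adjusted p = 0.00751). This probeset had also been called at 60 and 240 min, at -0.55 and -0.43.

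ERBB3, which binds neuregulins, has little kinase activity of its own and recruits PI3K, fell to 0.715 of its untreated level by 240 min. Arrays A, B and C gave 6.98, 7.02 and 6.72 at 0 min, 6.95, 6.92 and 6.83 at 20 min, and 6.76, 6.61 and 6.67 at 40 min. They gave 6.65, 6.86 and 6.61 at 60 min and 6.38, 6.43 and 6.61 at 120 min. They gave 6.39, 6.49 and 6.37 at 240 min and 6.44, 6.42 and 6.55 at 480 min. All 3 arrays at 120, 240 and 480 min lay below all 3 at 0 min, as in 8.02%, 14.4% and 12.7% of all genes, whereas those at 20, 40 and 60 min overlapped them. Array C was the lowest of the 0 min arrays.

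The ERBB3 change was -0.43 ± 0.10 at 120 min (limma adjusted p = 0.00631), -0.48 ± 0.10 at 240 min (adjusted p = 0.00187) and -0.43 ± 0.10 at 480 min (adjusted p = 0.00398). Genes called lower were 3.21%, 6.21% and 7.11% of all genes at these times. The difference was -0.0037 at 20 min, with a 95% interval of -0.22 to 0.21. At 40 and 60 min it was -0.23 and -0.20 and did not pass (adjusted p = 0.386 and 0.291). Between 480 and 120 min it was -0.0025, with an interval of -0.22 to 0.21. The F-test gave an adjusted p of 0.0016. From the highest mean down the times ran 0, 20, 60, 40, 120, 480 and 240 min, and neighbours overlapped throughout. With only the arrays of 0 and 120 min in the fit the 120 min call was lost (adjusted p = 0.0916).

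At 120 min 37 of 37 kept ERBB3 probesets lay below their 0 min level, with a median difference of -0.51, while 55.6% of all probesets lay above theirs. Of the 37, limma called lower 1 at 40 min (0.356% of all), 3 at 60 min (1.09%) and 14 at 120 min (2.68%). It called 19 lower at 240 min (4.86% of all) and 17 at 480 min (6.1%). The range at 240 min was -1.15 to 0.13. The largest fall was in probeset 3417279, with 7.44, 7.16 and 7.13 on arrays A, B and C at 0 min. It gave 6.43, 6.35 and 6.31 at 40 min and 6.12, 6.06 and 6.10 at 240 min, when every array lay below the untreated ones. It was called from 40 min on, at -0.88 ± 0.14 (adjusted p = 0.00155), and was at -1.15 ± 0.14 at 240 min (adjusted p = 1.97e-05). The 120 min count was 6 without array B of 120 min and the 240 min count 12 without array C of 240 min. The 480 min count was 10, 10 and 11 without arrays A, B and C of 0 min, and 5, 11 and 9 without arrays A, B and C of 480 min. The share of all probesets called without these arrays was not counted.

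ERBB4, a neuregulin receptor with an active kinase, was near the limit of the array in these cells. Only 14 of its 39 probesets, 35.9%, passed the filter, against 80.5% over the 6 genes and 73.7% over all genes. The dimmest kept probeset had a mean of 5.21 and the brightest left out 5.07. Its level was between 5.78 and 6.18 on all arrays, at 6.04, 6.18 and 5.83 (A, B, C) at 480 min and 6.14, 5.92 and 5.96 at 0 min. The groups overlapped at each time, with differences between -0.15 ± 0.14 at 20 min and 0.01 ± 0.14 at 480 min and an F-test adjusted p of 0.935. The 480 min interval was -0.27 to 0.29. From the highest mean down the times ran 480, 0, 240, 60, 120, 40 and 20 min, with all 6 neighbouring pairs overlapping.

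One ERBB4 probeset, 2597788, stood far above the rest, with a mean of 10.15 against 6.83 for the next. It gave 10.38, 10.52 and 10.49 on arrays A, B and C at 0 min, 10.14, 9.87 and 9.71 at 120 min, and 9.66, 10.31 and 9.84 at 480 min. These were all below the untreated arrays at both later times, and limma called it lower at 120 min (-0.56 ± 0.16, adjusted p = 0.033) and 480 min (-0.53 ± 0.16, adjusted p = 0.0307). The other ERBB4 probesets that were called were 2597636 and 2597744, lower at 480 min by -0.62 and -0.50, and 2597570, higher at 240 min by 0.77. Of the 14 kept probesets, 1 was thus lower at 120 min, 1 higher at 240 min and 3 lower at 480 min. Of all probesets 2.68%, 9.07% and 6.1% were called in these directions at these times. Where on the gene these probesets lie is not given here.

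ADAM17, also known as the TNF-converting enzyme and in mouse cells the main sheddase of TGFA, AREG, HBEGF and EREG, rose 1.67-fold by 120 min and was lower again at 480 min. Arrays A, B and C gave 7.54, 8.12 and 7.78 at 0 min, 8.17, 8.30 and 8.0 at 20 min, and 8.19, 7.88 and 8.20 at 40 min. They gave 8.36, 8.36 and 8.49 at 60 min and 8.41, 8.58 and 8.68 at 120 min. They gave 8.16, 8.13 and 8.51 at 240 min and 8.06, 7.86 and 8.18 at 480 min. Every array at 60, 120 and 240 min lay above the 3 untreated ones, as in 15.1%, 17% and 23.1% of all genes. Those at 20, 40 and 480 min overlapped with the untreated arrays, through array B of 0 min.

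The change at 120 min was 0.74 ± 0.14 (limma adjusted p = 0.000957), where 11.2% of all genes were called higher. It was 0.59 ± 0.14 at 60 min (adjusted p = 0.0152, 4.82% of all genes higher) and 0.45 ± 0.14 at 240 min (adjusted p = 0.0304, 13.5% higher). The differences of 0.34, 0.28 and 0.22 at 20, 40 and 480 min did not pass, and the F-test gave an adjusted p of 0.00656. In a contrast chosen after the values were seen, ADAM17 was lower at 480 min than at 120 min. The difference was -0.52 ± 0.14 (limma adjusted p = 0.03), where 4.12% of all genes were called lower. The arrays of these times did not overlap, but the share of all genes without such overlap was not counted. None of the 6 genes was called by limma between 2 successive times after 20 min, where 0.572%, 0.229%, 3.49%, 1.54% and 1.47% of all genes were. At an unadjusted p under 0.05, 1 was lower from 20 to 40 min, 1 higher from 40 to 60 min and 1 lower from 60 to 120 min. The shares above do not apply to that looser threshold. The order of the ADAM17 means was 120, 60, 240, 20, 40, 480 and 0 min from the top, and the arrays of neighbours overlapped in all 6 pairs.

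The 120 min rise of ADAM17 was called by limma in all 10 alternative settings and without any 1 of the 21 arrays, with adjusted p up to 0.0152. Its estimate ran between 0.54 and 0.83 over the settings and between 0.61 and 0.89 when 1 array was left out. The 60 min call was lost without array A of 0 min (0.46, adjusted p = 0.108), without array C of 60 min (0.55, adjusted p = 0.0812) and with the array index as a covariate (0.42, adjusted p = 0.0582). The 240 min call was lost without array A of 0 min (0.31, adjusted p = 0.171), array C of 0 min (0.43, adjusted p = 0.0773) or array C of 240 min (0.33, adjusted p = 0.184). It was also lost with the index (0.31, adjusted p = 0.0754) and with only the arrays of 0 and 240 min (adjusted p = 0.0662). The 480 against 120 min call was lost without array B or C of 120 min (adjusted p = 0.0929 and 0.115) and without array A or B of 480 min (adjusted p = 0.0767 and 0.132).

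All 23 ADAM17 probesets passed the filter. Limma called 10 higher at 60 min (2.94% of all probesets) and 18 at 120 min (7.38%). It called 12 higher at 240 min (9.07% of all) and 1 at 480 min (10.5%). Of the 23, 22 lay above their 0 min level at 60 min and at 120 min, where the medians were 0.65 and 0.84. At 120 min the differences ran between -0.11 for probeset 2539857, which was called at no time, and 1.78 ± 0.34 for 2539849. Probeset 2539849 gave 7.68, 8.01 and 8.68 on arrays A, B and C at 120 min and 5.39, 6.26 and 7.36 at 0 min, so its untreated arrays spread widely but stayed below the treated ones. The 60 min count was 1 and 5 without arrays A and B of 0 min, 3 and 0 without arrays A and C of 60 min, and 4 with the array index. The 120 min count was 11 without array A of 0 min and 11 without array C of 120 min. The 240 min count was 3 without array A of 0 min, 6, 6 and 4 without arrays A, B and C of 240 min, and 6 with the index. Shares of all probesets under these settings were not counted.

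**Figure D2:**
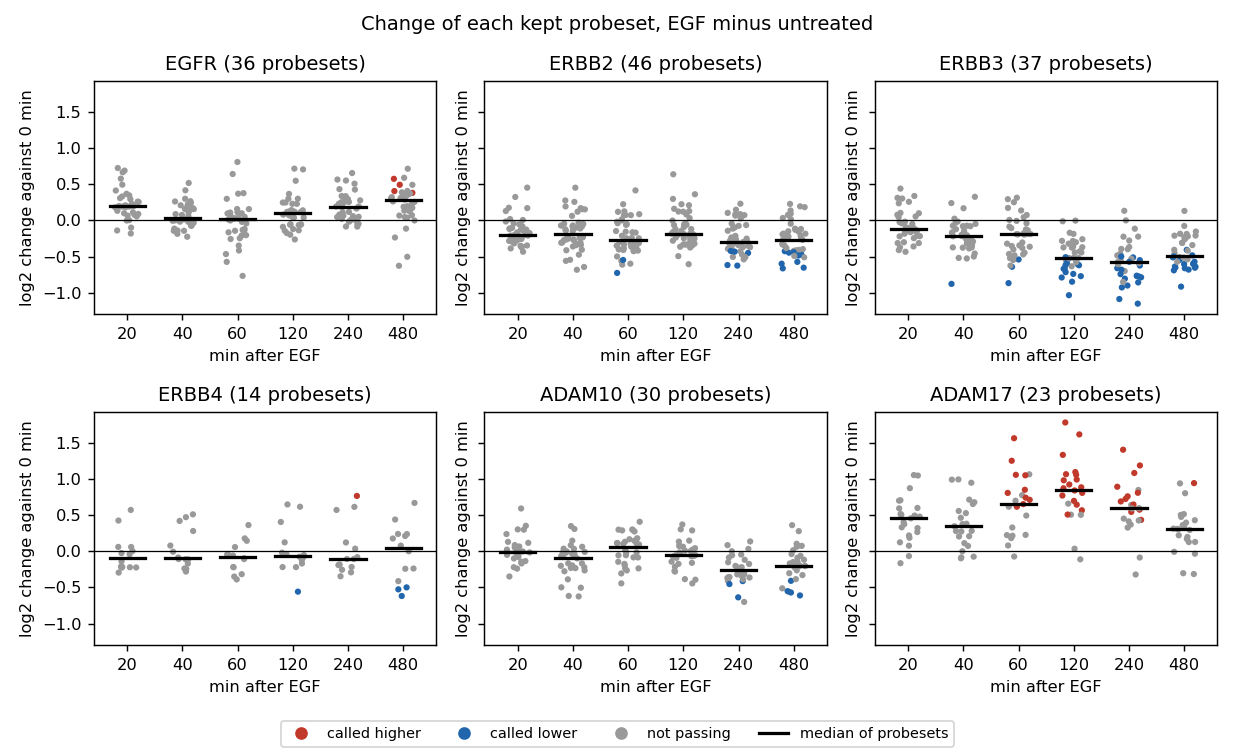
Difference from 0 min of every kept probeset, on the log2(intensity + 16) scale, by minutes after EGF. Points are probesets, coloured where called, and bars are medians: 22 of 23 ADAM17 probesets lay above 0 at 120 min and 37 of 37 ERBB3 probesets below it, while those of ADAM10 and ERBB4 lay on both sides.

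ADAM10, which sheds the precursors of EGF and betacellulin in mouse cells and cuts Notch receptors, gave 9.12, 8.99 and 9.12 on arrays A, B and C at 0 min. It gave 9.28, 9.0 and 9.08 at 20 min, 8.98, 8.94 and 9.08 at 40 min, and 9.03, 9.16 and 9.23 at 60 min. At 120 min it gave 8.75, 9.16 and 9.25, at 240 min 8.83, 8.85 and 9.07, and at 480 min 9.07, 8.61 and 9.11. Each EGF group overlapped the untreated one, and 1 array was well below the other 2 at 120 min (A) and at 480 min (B). These arrays also had the lowest array index of their times, at 1.22 and 1.24. The differences were between -0.16 ± 0.14 at 240 min and 0.06 ± 0.14 at 60 min, with a 95% interval of -0.31 to 0.26 at 120 min, and the F-test gave an adjusted p of 0.67. By mean the order was 60, 20, 0, 120, 40, 480 and 240 min from the top, with overlap between all neighbours. Of the 30 kept probesets limma called 3 lower at 240 min and 4 at 480 min, where 4.86% and 6.1% of all probesets were. Of the 4, 3626649 changed most, by -0.61 ± 0.14 (adjusted p = 0.00423), and the others were 3626592, 3626608 and 3626569.

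Whether the members changed differently from each other was tested on the difference of 2 genes within each array, for 4 pairs at 6 times, in a fit with all other genes. Of the 24 tests 8 were called, where between 0.981% of all genes at 20 min and 22.6% at 480 min were. Pairs with ADAM17 or ERBB3 hold a gene that was also called alone, so their calls are not separate results. ADAM17 changed more than ADAM10 by 0.53 ± 0.15 at 60 min (limma adjusted p = 0.0344), 0.77 ± 0.15 at 120 min (adjusted p = 0.000854) and 0.61 ± 0.15 at 240 min (adjusted p = 0.00476). At 480 min the difference was 0.37 (adjusted p = 0.0734, 95% interval 0.07 to 0.68). The 60 min call was lost without array A or C of 0 min (adjusted p = 0.202 and 0.0925), without array A, B or C of 60 min (0.116, 0.0506 and 0.108) and with the index (0.0581). The 480 min difference was called without array B of 0 min (adjusted p = 0.00545), as was the 40 min one (0.0396). With the mean over probesets both were called as well, at 0.49 (adjusted p = 0.00482) at 480 min and 0.51 (adjusted p = 0.0217) at 40 min.

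EGFR and ERBB3 changed differently, although EGFR alone passed at no time. At 120, 240 and 480 min EGFR alone was at 0.11, 0.20 and 0.28, and ERBB3 at -0.43, -0.48 and -0.43. EGFR minus ERBB3 was 0.54 ± 0.11 at 120 min (limma adjusted p = 0.00111), 0.68 ± 0.11 at 240 min (adjusted p = 6.89e-05) and 0.72 ± 0.11 at 480 min (adjusted p = 3.64e-05). EGFR minus ERBB2 was 0.44 ± 0.12 at 240 min (adjusted p = 0.0112) and 0.55 ± 0.12 at 480 min (adjusted p = 0.00168), although neither gene alone passed at these times. The 240 min value was not called without the filter (0.33, adjusted p = 0.0653), without array A of 0 min (adjusted p = 0.07) or without array C of 240 min (adjusted p = 0.0519). At 20 min EGFR minus ERBB2 was 0.42 (adjusted p = 0.0975), and it was called without array C of 20 min (adjusted p = 0.0485).

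ERBB2 and ERBB3 did not differ in a called way at any time in limma, although 2 of the 6 times had an unadjusted p under 0.05. The difference was largest at 120 min, at 0.32, with an adjusted p of 0.0521 and a 95% interval of 0.09 to 0.55. It was called there under 5 of the alternatives, with adjusted p between 0.0018 for the mean over probesets and 0.0405 for a pseudocount of 1. At 240 min it was 0.24 (adjusted p = 0.128), and it was called with the 75th percentile filter (0.31, adjusted p = 0.0332), the mean over probesets (0.33, adjusted p = 0.00366) and the array index (0.33, adjusted p = 0.0199). The 120 min difference was also called without array C of 120 min (0.0382) and without array B of 480 min (0.0475).

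**Figure D3:**
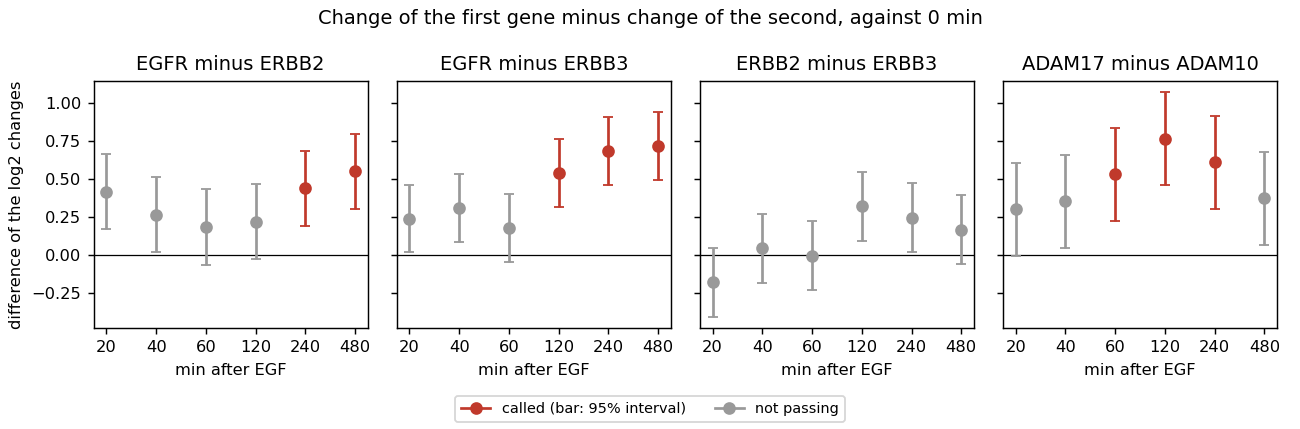
Change of the first gene of each pair minus change of the second, against 0 min, in log2 units, by minutes after EGF. Points are estimates with 95% intervals, red where called: EGFR minus ERBB3 reached 0.72 at 480 min and ADAM17 minus ADAM10 was highest at 120 min, at 0.77.

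The genes most like ERBB3 over the 21 arrays, among 4569 others past the F-test, were the semaphorin gene SEMA6D (Pearson r = 0.914), the cytochrome P450 gene CYP4F12 (0.909) and the orphan nuclear receptor gene NR2F2 (0.906). The arrays share the 7 times, so these are descriptions with no test. SEMA6D fell by 1.25 on the log2 scale at 120 min and by 1.33 at 240 min. NR2F2 was lower at both times, at -0.86 and -0.82. Those most like ADAM17 were MAD2L1BP (0.901), whose product binds the spindle checkpoint protein MAD2, GRAMD2B (0.9) and the guanylate-binding protein gene GBP3 (0.89). At 120 min they were higher by 0.50, 1.47 and 1.03.

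The genes around the receptors were taken from 6 lists, whose members are counted and not tested as lists. Over all genes, limma called 14.4% at 120 min, 19.7% at 240 min and 22.6% at 480 min in either direction, and the median changes were 0.04, 0.02 and 0.05. Of 10 ligand genes tested (AREG had no single-gene probeset), 4 were called higher at 120 min and 4 at 480 min, when 1, EPGN, was lower. The list median was 0.43 at 120 min and 0.06 at 480 min, beside 0.04 and 0.05 over all genes. The 4 were HBEGF, TGFA, EREG and NRG1, and known substrates of ADAM17 are among their products. HBEGF was higher from 20 min on, at 1.70 ± 0.16 at 20 min and 3.37 ± 0.16 at 120 min. EREG was higher from 40 min, and TGFA and NRG1 from 60 min, the time of the first ADAM17 call. NRG1, a ligand of ERBB3 and ERBB4, was at 0.91 ± 0.13 at 120 min and 1.28 ± 0.13 at 240 min, times at which ERBB3 was lower. Adjusted p in limma was at most 0.0189 for these calls of NRG1.

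Among 7 other ADAM proteases 2 were called higher at 120, 240 and 480 min, with a list median of 0.29 at 120 min, beside 0.04 over all genes, of which 14.4%, 19.7% and 22.6% were called either way at these times. ADAM19, which sheds neuregulins in mouse cells, rose by 1.32 ± 0.10 at 120 min and 1.92 ± 0.10 at 480 min (adjusted p = 9.07e-12 at 480 min), and ADAM8 by 0.53 ± 0.10 at 40 min and 1.21 ± 0.10 at 480 min. Both were highest at 480 min.

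Of 15 partners and inhibitors of the sheddases 4 were called higher at 120, 240 and 480 min, and 1, 1 and 2 were called lower. Over all genes 14.4%, 19.7% and 22.6% were called either way at these times. The list median was 0.01, 0.03 and 0.04, beside 0.04, 0.02 and 0.05 over all genes. RHBDF2, which encodes 1 of the iRhom proteins that support the maturation of ADAM17, rose by 0.37 ± 0.11 at 120 min and 0.56 ± 0.11 at 480 min. RHBDF1, which encodes the other iRhom, passed at no time and was at 0.32 at 240 min (adjusted p = 0.137). FURIN, the convertase that removes the ADAM prodomains, rose by 0.49 ± 0.12 at 120 min and 0.76 ± 0.12 at 480 min. TSPAN5, a tetraspanin partner of ADAM10, rose by 0.47 ± 0.14 at 120 min and 1.55 ± 0.14 at 480 min. TIMP1, an inhibitor of ADAM10 and metalloproteinases, rose by 0.97 ± 0.17 and 1.32 ± 0.17 at these times. RECK, which encodes a membrane inhibitor of metalloproteinases, was lower from 60 min on, at -0.50 ± 0.11 at 240 min, and TIMP3, the inhibitor of ADAM17, was called lower at 480 min, at -0.35 ± 0.12 (adjusted p = 0.0315).

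Of 23 adaptors and effectors of the receptors 3 were higher and 1 lower at 120 min, 6 and 4 at 240 min, and 5 and 2 at 480 min, with list medians of 0.05, 0.08 and 0.02. Called either way were thus 4, 10 and 7 of 23, where 14.4%, 19.7% and 22.6% of all genes were called and the all-gene medians were 0.04, 0.02 and 0.05. SHC1, an adaptor of EGFR and ERBB3, rose by 0.70 ± 0.10 at 240 min, CRK by 0.73 ± 0.12 at 120 min and VAV2, an exchange factor for RAC, by 0.84 ± 0.13 at 480 min. PIK3R3, a regulatory subunit of PI3K, fell by 1.20 on the log2 scale at 240 min (SE 0.17, adjusted p = 2.06e-05). PIK3R1 and PIK3R2, which encode the other regulatory subunits on the list, were also called lower at 240 min, at -0.64 and -0.39.

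Of 20 genes for inhibition and turnover of the receptors 6 were higher and 2 lower at 120 min, 8 and 3 at 240 min, and 10 and 1 at 480 min, with medians of 0.30, 0.26 and 0.37. Of all genes 14.4%, 19.7% and 22.6% were called either way, with medians of 0.04, 0.02 and 0.05. ERRFI1, whose product binds and inhibits the EGFR kinase, was at 0.87 ± 0.13 at 20 min, 1.91 ± 0.13 at 60 min and 0.73 ± 0.13 at 240 min. SPRY2, an inhibitor of receptor signalling, was higher at 20, 40, 60 and 480 min, by between 0.36 and 0.55. CBLB, a ubiquitin ligase of activated receptors, fell by 1.19 on the log2 scale at 240 min, whereas its relatives CBL and CBLC were higher there, by 0.45 and 0.48. LRIG3 was lower at 120 min, at -1.02 ± 0.13, and at 240 min, at -0.39 ± 0.13.

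Of 14 other receptor tyrosine kinases 3 were higher and 1 lower at 120 min, 4 and 3 at 240 min, and 3 and 6 at 480 min, with medians of -0.01, -0.07 and -0.08. The shares of all genes called either way were 14.4%, 19.7% and 22.6%, and the all-gene medians 0.04, 0.02 and 0.05. EPHA2, an ephrin receptor, was higher at every time and highest at 60 min, at 1.40 ± 0.09. MST1R, the receptor of macrophage-stimulating protein, and MET, that of hepatocyte growth factor, were higher at 120, 240 and 480 min, by 0.77 and 0.57 at 480 min. FGFR2 fell by 1.06 on the log2 scale at 240 min, and DDR1, a collagen receptor, was at -0.60 ± 0.11 at 480 min. IGF1R and AXL were among the others that were lower, at -0.35 and -0.51 at 480 min.

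**Figure D4:**
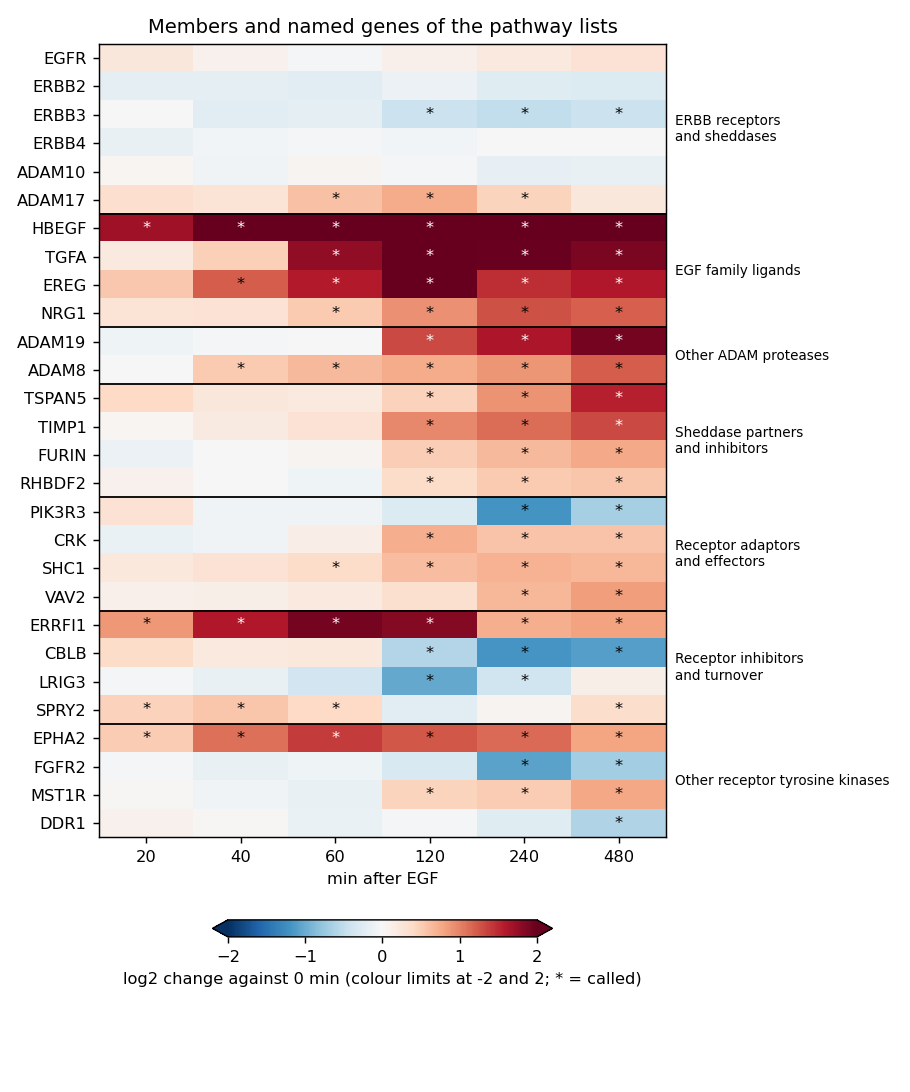
Log2 change against 0 min, by minutes after EGF, for the 6 genes and up to 4 genes of each list with the smallest F-test p. Red is higher and blue lower than 0 min, colours end at -2 and 2, and asterisks mark called changes: HBEGF reached 3.83 at 60 min, and ADAM17 and ERBB3 had 3 asterisks each.

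Some cell type markers moved in the hours in which ERBB3 was lower and ADAM17 higher. The luminal markers FOXA1 and KRT18 were higher at 120 min, by 1.28 ± 0.11 and 0.58 ± 0.11, and KRT8 by 0.32 ± 0.10, while GATA3 was lower, at -1.05 ± 0.10. The 7 luminal markers summed to between 2005 and 2197 intensity units on the arrays of 120 min and between 1601 and 1802 on those of 0 min. The basal markers LAMB3 and TP63 were higher at 120 min, by 1.14 ± 0.10 and 0.43 ± 0.12. The 7 basal ones summed to 16170 to 17908 at 120 min and 13799 to 16219 at 0 min, so these ranges overlapped. The fibroblast marker COL1A1 was at -0.51 ± 0.12 at 120 min and -0.71 ± 0.12 at 240 min, and the 5 of its list summed to 488 to 548 at 0 min, 419 to 449 at 120 min and 390 to 395 at 240 min. At 120 min 5 of 7 basal, 3 of 7 luminal and 4 of 5 fibroblast markers did not pass, where 14.4% of all genes were called. The list medians were 0.17, 0.09 and -0.12, beside 0.04 over all genes. Of the 7 leukocyte and endothelial markers limma called 0, also at an unadjusted p under 0.05. The part of these markers in the results for the receptors and sheddases was not tested.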

How the data were processed

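RNA of MCF10A cells was measured on 21 arrays, 3 at each of 7 times. Each probeset had a single linear intensity per array in the deposited values. PLIER and Affymetrix Expression Console 1.1 are named per the submitters' processing notes, with neither settings nor a build of the array. Array medians ran between 20.44 and 20.56 intensity units, so the authors' deposited values were already equalised between arrays, by a step not stated in the labels.

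Probesets were named through the platform annotation: 354600 had 1 gene symbol, 14898 had several and were not used, and 1014733 are unnamed here. Symbols were updated through the RefSeq gene table of GRCh38.p14. Intensities were turned into log2(intensity + 16), which understates changes of dim genes. Probesets with a mean of at least 5.18 (20.2 intensity units) were kept, and each gene was summarised by the median of at least 3 kept probesets. One model with a mean per time was fitted over 16614 genes in limma 3.58.1 (R 4.3.3 with the data.table package, version 1.17.8), with 14 residual and 7.08 prior degrees of freedom. A second one covered 261183 probesets. Tests were two-sided, and ± gives standard errors. All comparisons with 0 min share its 3 arrays. The scripts were tested on simulated data. Promoter windows were searched in Python 3.11.15.

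The 6 genes, the pathway and marker lists and the alternatives were chosen with earlier results of these data known. Of each pathway list the text names up to 4 genes with the smallest F-test p past 0.05, and for ERBB3 and ADAM17 the 3 genes with the highest correlation, and all called markers at the times described. EPGN, RHBDF1, RECK, TIMP3, PIK3R1, PIK3R2, CBL, CBLC, MET, IGF1R and AXL were named after their values were seen, as were the probesets. Alternative settings were median centring, quantile normalisation, no filter, a filter at the 75th percentile, pseudocounts of 1 and 64, means over probesets, fits of 2 times only, the array index as a covariate, the replicate letter as a block, and leaving out each array.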

Additional observations from a re-analysis of the deposited data

How the results depend on the processing

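No result changed sign while called. ADAM17 at 120 min and ERBB3 at 240 and 480 min were called under every alternative and without any single array. The count of called members was 2 at 60 min and 2 at 480 min with the mean over probesets and with the filter at the 75th percentile, and 2 at 480 min with no filter, through ERBB2; it was 1 at both times in the report. Over the successive intervals it was 1 with the mean over probesets and 1 with that filter, against 0. With only the 2 times compared, it was 1 at 120 min and 1 at 240 min, against 2, in fits with fewer arrays. With the array index as a covariate it was 0 at 60 min and 1 at 240 min, and 4 and 6 ADAM17 probesets were called at these times; the cause was not tested. Leaving out 1 array gave 0 to 1 called members at 60 min and 1 to 2 at 240 min. It gave 0 to 10, 11 to 18 and 3 to 13 called ADAM17 probesets at 60, 120 and 240 min, and 6 to 15, 12 to 23 and 5 to 17 ERBB3 probesets at 120, 240 and 480 min. How many of all probesets were called under these alternatives was not counted. Genes of the 6 pathway lists called at 60 min were 12, but 19 with the mean over probesets, 7 without array A of 0 min and 6 without array C of 60 min. At 20 min they were 4, but 10 without array C of 20 min. Whether the replicate letters pair the arrays was not tested. Deviations of 19 of 63 same-letter pairs correlated over 0.1, with a range of -0.541 to 0.565. The median was -0.0111, against 0.00747 for other letters, and 11 of 21 arrays correlated best with their own letter. With the replicate block ADAM17 was at 0.74 at 120 min (limma adjusted p = 0.00128) and ERBB3 at -0.48 at 240 min (0.00328), and 2 members were called at each of these times, so the block changed no call of a member or pair. Dim signal limits ERBB4, for which 25 of 39 probesets were below the filter, and no detection calls were used.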
